A study of Homo sapiens with 4 samples.

Results

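Cadherins and protocadherins, the calcium-dependent adhesion proteins of the cell surface, were examined in peaks of chromatin immunoprecipitation sequencing (ChIP-seq) from HCT116, an established human colorectal carcinoma line. The members were all genes named CDH, PCDH or CDHR with a number, and the PCDHA, PCDHB and PCDHG genes of the clustered protocadherins, with antisense genes left out. They took 76 of 15789 regions in the H3K27ac list and 270 of 13127 regions in the HSF1 list, at 9 and 20 genes and at 25 genes in all. H3K27ac is the acetylation of histone H3 at lysine 27, which marks active regulatory sequence, and HSF1 is the transcription factor of the heat shock response. The 4 libraries were the H3K27ac IP with its input and the HSF1 IP with its input, all from formalin-fixed HCT116 cells that had received no treatment. Each IP was represented by its list of regions called over its own input, with each region assigned to its nearest gene. With 1 library per group no replicate error can be given, and no test between libraries was made. Intervals are exact 95% Clopper-Pearson intervals and cover counting error only. Those over regions take the regions as independent, though many lie side by side at the same gene, and so may be too narrow.

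Classical cadherins bind one another across the gap between neighbouring cells and hold the cell's actin cytoskeleton through catenins. Type I members such as CDH1 (E-cadherin), CDH2 (N-cadherin) and CDH3 (P-cadherin) form the adherens junctions of epithelia and other tissues, while type II members are best known from neurons, mesenchyme and, for CDH5, endothelium. Protocadherins lack the catenin-binding tail of classical cadherins, and their clustered genes give neurons distinct surface identities. Intestinal epithelium is known for CDH1 and for CDH17, a cadherin with a short cytoplasmic tail.

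How deeply the libraries were sequenced is unknown. The regions held a median of 24 tags in the H3K27ac list and 20 tags in the HSF1 list, and the lowest score of the caller was 50 in the H3K27ac list and 30 in the HSF1 list. The HSF1 regions of the family had the caller's false discovery rate between 1.39% and 22.33%, with a median of 18.4%, and none had a score of 100 or more. That rate ran from 9.03% to 100% in the H3K27ac regions of the family. There it tended to rise with the score, from 9.03% at a score of 50.09 to 100% at 249.11. In the HSF1 regions of the family it tended to fall, as from 22.2% at a score of 30.33 to 4.42% at 78.71. The rates were therefore not compared between lists. Of 11 epithelial marker genes 6 had an H3K27ac region, among them KRT8, KRT18, KRT20 and CLDN4, and EPCAM, CDX1, CDX2, VIL1 and HNF4A had none. The H3K27ac list also held regions at 2 of 5 neuronal markers, SYT1 with 14 and NEUROD1 with 7, at 3 of 8 mesenchymal, 2 of 5 endothelial and 1 of 5 leukocyte markers. Of all protein-coding genes 28.5% had one, a share within the interval of each of these lists.

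H3K27ac regions were assigned to a smaller share of the members than of all protein-coding genes, and HSF1 regions to a larger share, in counts that carry no test. Of the 93 protein-coding members, 9 had an H3K27ac region (9.68%, interval 4.52 to 17.6), against 28.5% of all 19392 protein-coding genes. An H3K27ac region of the promoter class, which lies near a transcription start, was assigned to 2 of 93 members (2.15%), CDH3 and CDH17, against 12.1% of all protein-coding genes. In neither did the region cover the start. For HSF1 the count was 20 of 93 (21.5%, interval 13.7 to 31.2), against 12.5% of all protein-coding genes. The promoter class of the HSF1 list held 1 of 93 members (1.08%), CDH18, against 0.48% of all protein-coding genes. Both lists named 4 members (4.30%), CDH2, CDH17, CDH23 and PCDH7, against 3.84% of all protein-coding genes. With HSF1 regions held to a score of 50 or more, the H3K27ac minimum, 11 members had an HSF1 region and 0 were in both lists. The share of all protein-coding genes at that score was not computed, so the larger HSF1 share is given for the full list only. A member is counted as without a region where the lists used here do not name it. Nearest-gene assignment gives long genes and genes in sparse sequence more regions, and how much of these shares it sets was not tested.

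The type II branch had regions in the HSF1 list alone. All 13 type II classical cadherins were without an H3K27ac region (0 of 13, interval up to 24.7%), while 10 of the 13 had an HSF1 region (76.9%, interval 46.2 to 94.96). These 10 held 167 of the 270 HSF1 regions of the family (61.9%, interval 55.8 to 67.7). CDH5, CDH22 and CDH24 were the type II members without one. The HSF1 list reaches down to a score of 30 and the H3K27ac list to 50. At a score of 50 or more, CDH6, CDH7 and CDH10 had no HSF1 region. The other type II members of the HSF1 list kept from 1 (as at CDH11) to 4 (CDH8 and CDH18). Among the 5 type I members, CDH1, CDH2 and CDH3 had an H3K27ac region, CDH2 and CDH4 an HSF1 region, and CDH15 neither. Among the 5 atypical members, CDH17 and CDH23 had an H3K27ac region and CDH13, CDH17 and CDH23 an HSF1 region. Of 12 non-clustered protocadherins, 2 had an H3K27ac region (PCDH1 and PCDH7) and 4 an HSF1 region (PCDH7, PCDH15, PCDH17 and PCDH20). The clustered protocadherins were nearly empty in both lists, with 1 of 15 alpha genes in each list (a different gene in each), 1 of 16 beta genes in the H3K27ac list only, and 0 of 22 gamma genes in both. For HSF1 all 3 intervals include the 12.5% of all protein-coding genes. For H3K27ac those of the alpha and beta genes include the 28.5%, and that of the gamma genes (up to 15.4%) does not. The 5 cadherin-related genes CDHR1 to CDHR5, of which CDHR2 and CDHR5 belong to the brush border of enterocytes, were also in neither list (0 of 5, interval up to 52.2%, which includes the shares of all protein-coding genes in both lists).

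**Figure D1:**
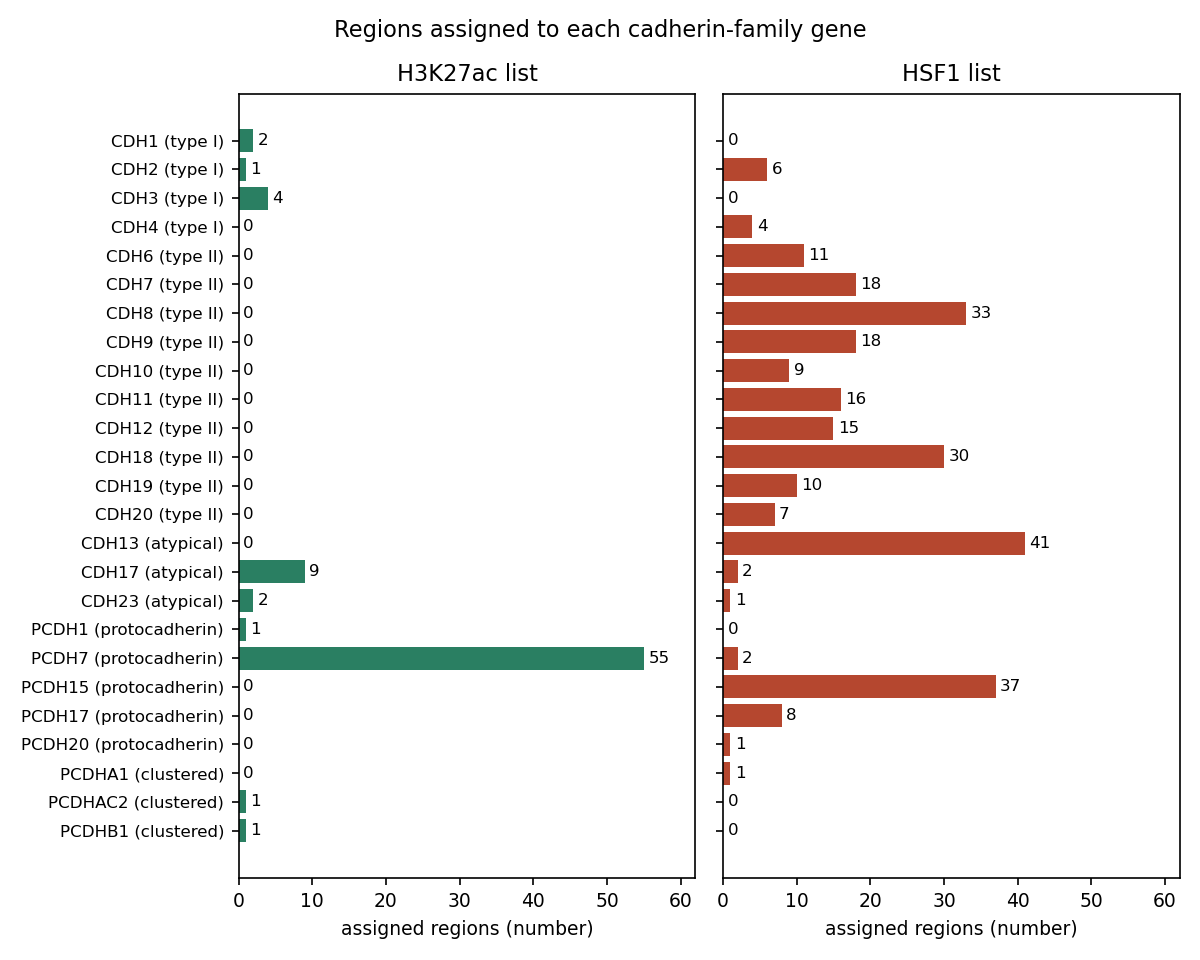
Number of regions assigned to each of the 25 members with a region, in the H3K27ac list (left) and the HSF1 list (right), with genes grouped by branch. PCDH7 stands alone on the left with 55 regions, and CDH13, PCDH15, CDH8 and CDH18 lead on the right with 41, 37, 33 and 30.

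PCDH7, a protocadherin that binds a protein phosphatase through its cytoplasmic tail, was the gene with the most H3K27ac regions of all 7390 genes in the list. It held 55, followed by NSMCE2 with 48, RAD51B with 46 and KRR1 with 39, where the median gene had 1. The regions spanned 431.4 kb (hg19, chromosome 4, 30715129 to 31146493) and covered 81.5 kb of it (18.9%). Of the 55, 52 were intronic, 1 exonic and 2 upstream of the gene. None was of the promoter class. The deposited start of PCDH7 (30721990) lay in a gap of 13.1 kb between regions, with the nearest one ending 2.27 kb before the start and the next beginning 10.8 kb after it. The number of regions fell along the gene, with 20 in the first 100 kb, 15 in the second, 9 in the third, 8 in the fourth and 1 in the last 26 kb. Other values rose again in the fourth 100 kb, with 333 tags and 14.7% covered, against 199 tags and 9.87% in the third. They stopped near the gene's 3' end, as the next H3K27ac region came 85.5 kb after the last one and the preceding one 1242 kb before the first.

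The PCDH7 regions were moderate one by one. Their fold enrichment ran from 3.85 to 11.22 with a median of 7.30, against 6.73 for the rest of the list, and their tags ran from 16 to 80 with a median of 29. The highest was 11.22-fold with 70 tags at 31040136 to 31043068, in an intron 320 kb after the start, and 3 more exceeded 10-fold. The region with most tags held 80 and was 8.42-fold (30780784 to 30784128, 60.5 kb after the start). The caller's false discovery rate was 100% both for the highest region and for the one with most tags. Their scores were 232.2 and 249.11, and that rate tended to rise with the score in the family's H3K27ac regions. With H3K27ac regions less than 10 kb apart joined, PCDH7 made 12 of 10295 joined regions. The largest joined 27 regions over 122 kb (30732783 to 30854389) and ranked 15 of 10295 by width times fold enrichment summed over its regions, and the next ranked 201. HSF1 had no region within the gene and 2 intergenic ones, 75.0 kb and 418 kb before its start, with 16 and 17 tags at 4.55-fold and 4.37-fold.

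**Figure D2:**
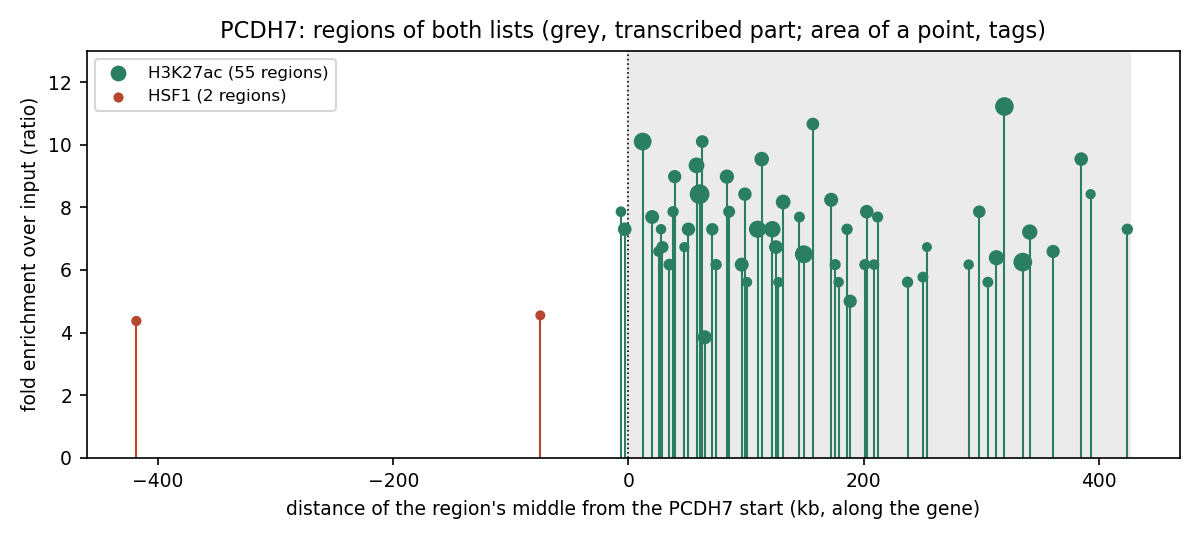
Fold enrichment over input of each region assigned to PCDH7 against the distance of its middle from the gene's start in kb, with H3K27ac in green, HSF1 in red, the area of a point in proportion to its tags, and the transcribed part in grey. The 55 H3K27ac regions lie from just before the start to the 3' end and become fewer along the gene, and the 2 HSF1 regions lie upstream of all of them.

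As no region of either list covered the PCDH7 start, the 250 bases before it are shown to be set beside the CDH18 starts below. They come from RefSeq (GRCh38.p14, chromosome 4, plus strand, start 30720369) and hold none of the motifs searched.
PCDH7, 250 bases before the start: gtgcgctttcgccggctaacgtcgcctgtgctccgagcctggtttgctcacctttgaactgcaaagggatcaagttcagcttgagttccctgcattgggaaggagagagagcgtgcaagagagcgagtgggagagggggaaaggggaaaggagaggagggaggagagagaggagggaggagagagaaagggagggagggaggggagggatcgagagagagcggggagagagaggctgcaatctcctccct

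Among type I cadherins, CDH3 had an H3K27ac region of the promoter class and CDH1 did not. CDH3 had 4 regions on chromosome 16. Its promoter region (68677208 to 68679138) held 44 tags at 7.30-fold with its middle 1.04 kb before the start. A second lay 24.1 kb before the start with 23 tags at 7.30-fold, and intronic ones 15.9 kb and 21.4 kb after it held 20 tags at 6.73-fold and 36 tags at 5.61-fold. CDH1, the E-cadherin of epithelial junctions, lies directly after CDH3 and had no promoter region. Its 2 regions lay between the genes, 25.5 kb before the CDH1 start with 19 tags at 6.25-fold (68745240 to 68746063) and 22.8 kb before it with 27 tags at 6.05-fold (68747790 to 68749100). The 190 kb from CDH3 to CDH1 held 4 H3K27ac regions in all, 21.0 per Mb, and no HSF1 region. Widened by 500 kb on each side, this interval held 23 H3K27ac regions at 19.3 per Mb, of which 6 were of the family. CDH2, the N-cadherin, had 1 H3K27ac region, with 16 tags at 6.73-fold and 981 kb from its start, so this assignment says only that no other gene was nearer.

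CDH17, the intestinal cadherin, was the member with the most H3K27ac regions after PCDH7. Its 9 regions lay on chromosome 8 between 95115088 and 95243162, 1 of the promoter class, 4 upstream, 2 intronic and 2 intergenic. The promoter region (95229862 to 95231727) held 35 tags at 5.29-fold with its middle 1.29 kb before the start, and the one with most tags, 65 at 6.41-fold, lay 5.35 kb before it (95233291 to 95236425). All 9 ran from 4.52-fold to 6.67-fold, none above the list's median of 6.73. Joined within 10 kb, 8 regions assigned to CDH17 or its neighbour formed 1 stretch of 40.9 kb that ranked 87 of 10295. The surroundings were also dense. The gene itself held 3 H3K27ac regions, 33.3 per Mb, with a median of 35 tags. Widened by 500 kb on each side, the interval held 63 at 57.8 per Mb, with a median of 45 tags. Of these 63, 9 were of the family. HSF1 had 2 regions far downstream, 110 kb and 113 kb after the start, with 18 tags at 5.42-fold and 26 tags at 3.02-fold. They were the HSF1 regions of the family closest to any H3K27ac region, 3.81 kb and 6.25 kb from the one at 95115088 to 95116242. The other H3K27ac regions on this chromosome held a median of 33 tags, against 24 in the whole list, and the part of this in the CDH17 regions was not tested.

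The other H3K27ac members had 1 or 2 regions each. CDH23, a cadherin of the tip links of hair cells, had the highest fold enrichment after PCDH7, 8.42-fold in both of its regions. One was intronic with 74 tags (chromosome 10, 73526671 to 73529703), and the caller's false discovery rate for it was 100% at a score of 236.66. It was equally assigned to VSIR, a gene within CDH23 that encodes an immune checkpoint receptor. The other lay 25.8 kb before the CDH23 start with 20 tags, 46.3 kb from the single HSF1 region of CDH23 (16 tags at 4.87-fold, 21.5 kb into the gene). PCDH1 had an intergenic region with 18 tags at 6.17-fold. In the clustered protocadherins on chromosome 5, the H3K27ac regions were 17 tags at 6.73-fold for PCDHAC2 (140385462 to 140386354) and 18 tags at 5.49-fold for PCDHB1 (140390238 to 140391172). They lay within a few kb of one another, between the alpha and the beta genes, and about 40 kb from either assigned start. The single HSF1 region of the clusters, with 13 tags at 5.32-fold, was intronic, 3.21 kb after the PCDHA1 start.

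HSF1 regions of the family lay deep in introns or far outside genes. The 10 members with most of them were CDH13 (41), PCDH15 (37), CDH8 (33), CDH18 (30), CDH7 and CDH9 (18 each), CDH11 (16), CDH12 (15), CDH6 (11) and CDH19 (10). CDH13 (T-cadherin, which is anchored to the membrane by a lipid) ranked 10 among the 4101 genes of the list by number of regions, PCDH15 (the partner of CDH23 in tip links) 15, CDH8 24 and CDH18 29. In the family as a whole 142 of 270 regions were intergenic (52.6%, interval 46.5 to 58.7) and 119 intronic (44.1%, interval 38.1 to 50.2), against 62.7% and 28.4% in the rest of the list. The members differed in this: 40 of 41 CDH13 regions, 32 of 37 PCDH15 regions and 12 of 15 CDH12 regions were intronic, against 2 of 33 for CDH8 and 1 of 16 for CDH11. Without CDH13, 34.5% of the family's regions were intronic (interval 28.4 to 41.0). The median distance to the assigned start was 354 kb in the family and 130 kb in the rest of the list, and 82.6% and 56.8% lay more than 100 kb away. With 1 region per member, that of highest fold enrichment, the family's median was 172 kb. CDH11 was the most remote, with a median of 1158 kb, followed by CDH8 with 800 kb. Only 2 of the 270 (0.741%) were of the promoter class, against 1.48% of the rest.

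**Figure D3:**
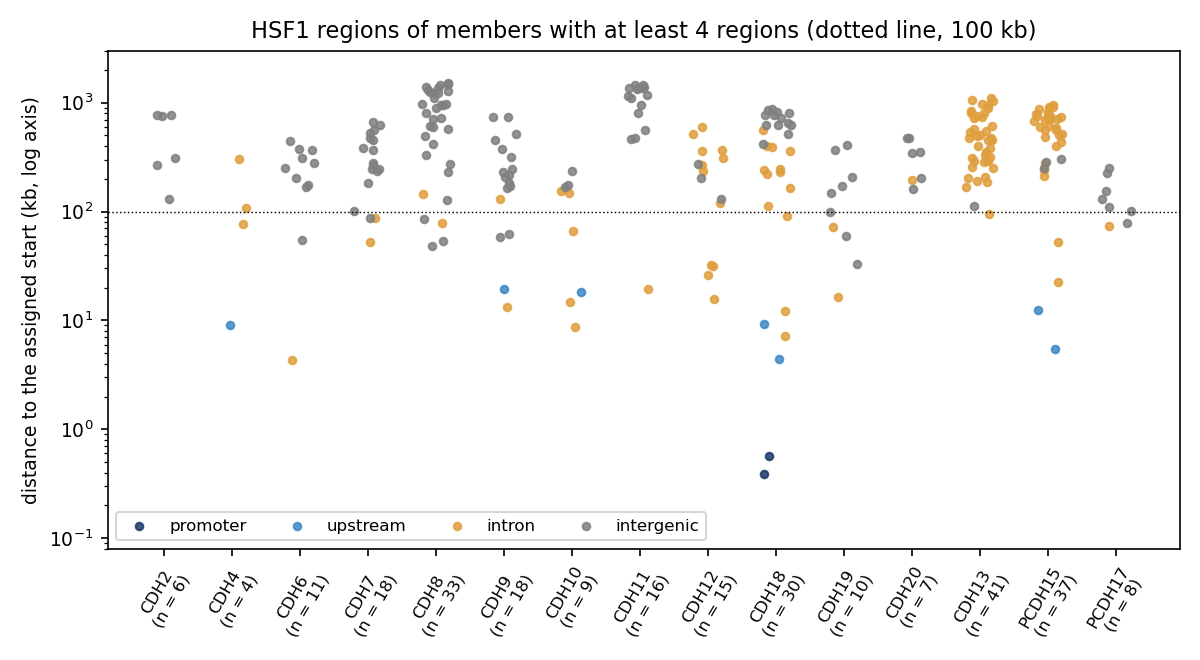
Distance of each HSF1 region to its assigned start in kb (log axis), for the 15 members with at least 4 HSF1 regions, coloured by class, with each point 1 region. CDH18 holds the only promoter-class points, below 1 kb, and most other points lie above the dotted line at 100 kb.

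By height the family's HSF1 regions did not stand above the list. Their median fold enrichment was 4.53 against 4.68 in the rest, their median tags 21 against 20, and 10.4% against 11.7% reached a score of 50. The highest was an intergenic region 172 kb before CDH19, a cadherin known from Schwann cell precursors, with 24 tags at 8.05-fold (chromosome 18, 64442525 to 64443668). It was followed by regions of PCDH17 (7.09-fold with 18 tags), CDH18 (6.91-fold with 44 tags), CDH7 and PCDH15 (6.64-fold with 20 and 26 tags), CDH13 (6.41-fold with 29 tags) and CDH9 (6.38-fold with 17 tags). Of these 7, the PCDH15 and CDH13 regions were intronic and the others intergenic. Regions of 6.20-fold closed the top 10, shared by CDH11, CDH18, CDH19, CDH20 and others at the same value. CDH2 had 6 HSF1 regions, all intergenic and none nearer than 131 kb, at 3.99-fold to 4.43-fold with 14 to 18 tags. CDH4 (R-cadherin) had 4, with 15, 33, 31 and 24 tags, of which 3 were intronic and 1 lay 9.12 kb before the start. PCDH20 had 1, with 26 tags at 6.04-fold.

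CDH18, a type II cadherin of the nervous system, was the only member with HSF1 regions at transcription starts. Its 30 regions were 2 of the promoter class, 2 upstream, 13 intronic and 13 intergenic. One promoter region (chromosome 5, 19885142 to 19886841) held 29 tags at 5.56-fold and covered the deposited start at 19886381. The other (19986886 to 19988585) held 24 tags at 5.17-fold and covered the start at 19988309. Both are internal starts of the gene. At its outermost start, 20575822, the nearest regions lay 4.42 kb and 9.31 kb upstream, with 15 tags at 4.26-fold and 28 tags at 4.55-fold. The nearest H3K27ac region to any of these 4 was 2713 kb away. RefSeq gives CDH18 starts at 19886272, 19988200 and 20575713 on GRCh38.p14 (minus strand), each 109 bases below a deposited hg19 start, so that the 3 starts match by their spacing. The 250 bases before each start covered by an HSF1 region are shown, and neither these nor those of the outermost start hold a motif searched.
CDH18, 250 bases before 19886272: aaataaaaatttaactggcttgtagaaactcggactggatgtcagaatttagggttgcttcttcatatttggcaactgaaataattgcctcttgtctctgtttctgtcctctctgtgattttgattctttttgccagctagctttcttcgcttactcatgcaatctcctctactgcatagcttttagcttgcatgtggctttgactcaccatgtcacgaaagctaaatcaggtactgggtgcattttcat
CDH18, 250 bases before 19988200: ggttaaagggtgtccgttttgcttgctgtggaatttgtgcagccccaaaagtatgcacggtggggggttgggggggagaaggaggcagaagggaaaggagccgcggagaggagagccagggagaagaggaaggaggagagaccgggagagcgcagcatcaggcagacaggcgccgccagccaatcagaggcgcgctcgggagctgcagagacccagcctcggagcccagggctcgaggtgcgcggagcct

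HSF1 binds inverted repeats of the letters GAA, and the promoter windows of the family were searched for GAANNTTC and TTCNNGAA, where N is any base. Each reads the same on both strands. RefSeq gave 92 windows, from 250 bases before to 50 after a start, for 73 of the 93 members. Among the 20 without a window were 7 members with a region, CDH1, CDH3, CDH6, CDH11, CDH13, CDH17 and PCDH20. A pair of either kind stood in 17 of 92 windows (18.5%, interval 11.1 to 27.9), against 11.5% of 21699 windows of other protein-coding genes and 13.5% of all 35116 windows. The family's windows were poorer in G and C, with a median of 47.3% against 62.7%, and the part of this in the motif share was not tested. The E-box CAGGTG or CACCTG, at which repressors of CDH1 bind, stood in 11 of 92 windows (12.0%), against 19.9% and 20.6%. Of the 15 members with both HSF1 regions and a window, CDH9, CDH10, CDH12 and CDH20 had a pair in a window. Their HSF1 region nearest to its assigned start lay 13.4 kb away at CDH9, 8.68 kb at CDH10, 15.7 kb at CDH12 and 163 kb at CDH20. At CDH12 this distance is to the deposited start at 22212878. The CDH12 pair stood before another RefSeq start, 21889847, which is offset from that deposited start by 323031 bases. A share per gene over all genes was not computed. The remaining windows with a pair belonged to clustered protocadherins, CDHR3 and PCDH19, and none of those genes had an HSF1 region. PCDHGA4, with no region in either list, had both pairs overlapping in 1 run, an arrangement of 3 units found in 1.09% of the family's windows and 0.406% of the other protein-coding windows. The stretches of 40 bases around 4 such pairs follow, with the motif in capitals, on the strand of the gene.
CDH10, minus strand, TTCNNGAA beginning 192 bases before the start: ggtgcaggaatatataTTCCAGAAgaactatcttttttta
CDH12, minus strand, TTCNNGAA beginning 187 bases before the start: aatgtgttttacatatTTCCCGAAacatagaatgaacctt
CDH20, plus strand, GAANNTTC beginning 48 bases before the start: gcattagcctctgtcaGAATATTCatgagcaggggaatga
PCDHGA4, plus strand, TTCNNGAA beginning 183 bases before the start and overlapping GAANNTTC: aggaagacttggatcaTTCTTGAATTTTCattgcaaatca

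Neighbouring type II cadherins shared long stretches with HSF1 and without H3K27ac regions. From CDH18 through CDH12, CDH10 and CDH9 to CDH6 (chromosome 5, 19471404 to 31329253), 11.9 Mb held 176 HSF1 regions and no H3K27ac region. Its density was 14.8 HSF1 regions per Mb, against 5.01 on the whole chromosome, where H3K27ac had 4.47 per Mb. Of the 176, 70 were assigned to the 5 cadherins, and the others to genes such as PRDM9 (10), the pseudogene GUSBP1 (13) and noncoding RNA genes. From CDH8 to CDH11 (chromosome 16, 61681154 to 65155966), 3.47 Mb held 48 HSF1 regions and no H3K27ac region, 13.8 against 5.35 HSF1 regions per Mb on the chromosome, and all 48 were assigned to either gene. From CDH20 through CDH7 to CDH19 (chromosome 18, 59000662 to 64271327) the picture was different, with 40 HSF1 regions at 7.59 per Mb against 7.73 on the chromosome. That stretch also held 15 H3K27ac regions, of which PHLPP1 took 7 and ZCCHC2 3, and none was assigned to a cadherin. PCDH15 had 34 HSF1 and no H3K27ac regions over 1.81 Mb, 18.8 HSF1 regions per Mb against 5.93 on its chromosome. The reverse held at PCDH7, with 53 H3K27ac regions, 124 per Mb against 5.22 on the chromosome, and no HSF1 region. These intervals run between the outermost ends of members that were picked with their regions known, so the densities are descriptions. They count each list at its own minimum score, 30 for HSF1 and 50 for H3K27ac, and were not computed at an equal score.

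**Figure D4:**
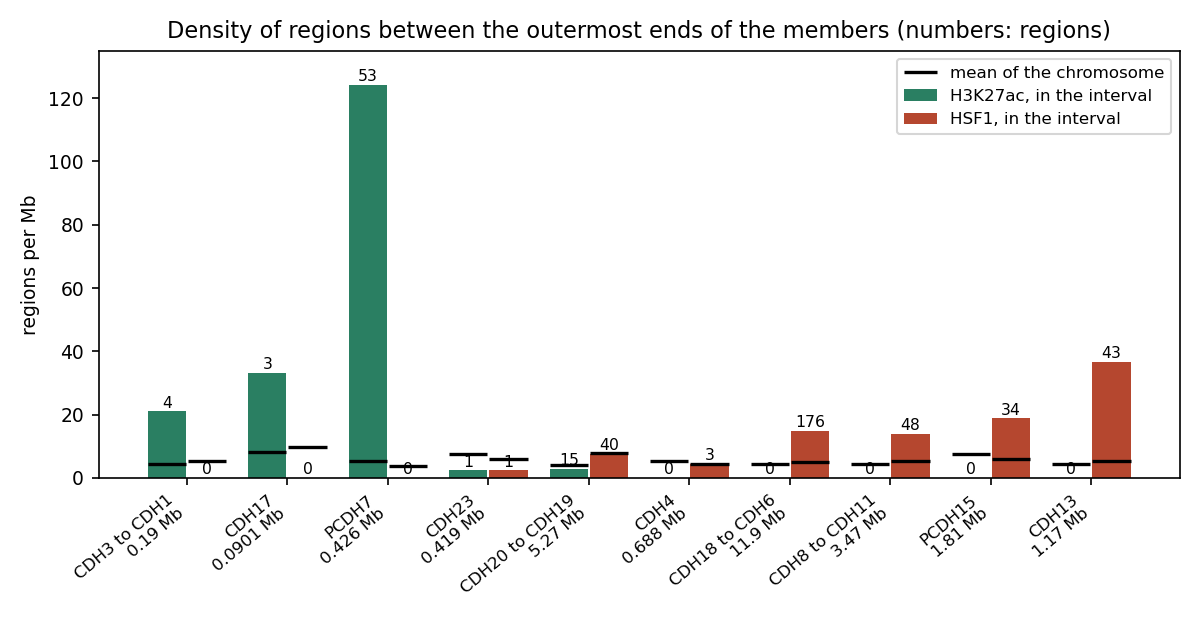
Regions per Mb between the outermost ends of neighbouring or single members, H3K27ac (green, left bar) and HSF1 (red, right bar), with the number of regions above each bar and the mean of the chromosome as a black line. The H3K27ac bar is the higher one from CDH3 to CDH1, at CDH17 and at PCDH7, and the HSF1 bar at the type II stretches, PCDH15 and CDH13.

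CDH13 stood apart from the other HSF1 members. Its transcribed part (chromosome 16, 82660573 to 83834245) held 43 HSF1 regions in 1.17 Mb, 36.6 per Mb against 5.35 on the chromosome, and no H3K27ac region. The regions assigned to it were wider and held more tags than those of the other members, with medians of 2154 bp and 36 tags, against 1278 bp and 20 tags in the rest of the family. Their tags ran from 18 to 71, and the 2 regions with 71 lay 469 kb and 810 kb after the start, at 3.07-fold and 3.98-fold. The median fold enrichment of CDH13, 4.39, was below that of the rest of the family (4.53). Tags also differed along the chromosome in both lists. HSF1 regions held a median of 29 tags within 2 Mb outside CDH13 (9 regions), 24 elsewhere beyond position 60 Mb and 20 below it. H3K27ac regions, of which CDH13 had none, held 38, 30 and 23 tags in the same 3 places. The HSF1 regions within 2 Mb outside CDH13 were about as wide as those inside it, with medians of 2156 and 2092 bp. Their median tags per kb were 16.7 outside and 16.3 inside. Elsewhere beyond position 60 Mb the median width was 1518 bp, and below it 1289 bp. Whether the tags and widths at CDH13 follow these gradients was not tested. Among the other members with at least 4 HSF1 regions, the median tags ran from 16 at CDH2 to 27.5 at CDH4.

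**Figure D5:**
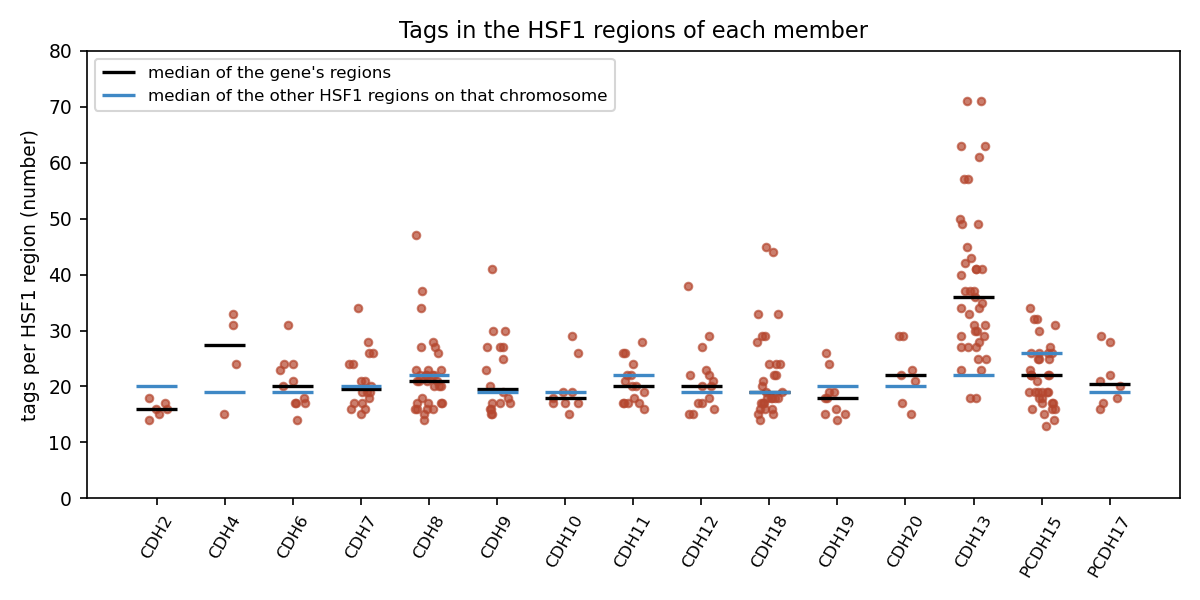
Tags in each HSF1 region of the 15 members with at least 4 HSF1 regions, each point 1 region, with the member's median as a black line and the median of the other HSF1 regions on its chromosome as a blue line. CDH13 has a median of 36 tags, against 22 for the other HSF1 regions on its chromosome, CDH4 has 27.5 against 19, and at the other members the lines lie closer together.

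Regions of the lists rarely met, in the family as in the rest. Of the 270 HSF1 regions of the family, 0 shared a base with an H3K27ac region, and 39 of 12857 (0.303%) in the rest of the list did. The exact interval of the family's count runs up to 1.36% (3 counts of 270 would be 1.11%), so the share in the rest lies within it. Within 10 kb, 2 of 270 (0.741%, interval 0.0898 to 2.65) had an H3K27ac region, both at CDH17, against 231 of 12857 (1.80%). Within 50 kb the counts were 3 of 270 (1.11%, interval 0.230 to 3.21), CDH23 being the third, and 913 of 12857 (7.10%). At this distance the share in the rest lies above the family's interval. The median gap from an HSF1 region to the nearest H3K27ac region was 2097 kb in the family and 767 kb in the rest. Of the 270 in the family, 200 were more than 1 Mb away, and the share of the rest beyond 1 Mb was not computed. Of the 4 genes in both lists, CDH17 had its lists closest at 3.81 kb, CDH23 had 46.3 kb, PCDH7 67.6 kb and CDH2 202 kb.

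The genes that work with cadherins are given by subgroup. The 51 genes were catenins, adherens junction partners, desmosome genes, giant cadherins and relatives, repressors of CDH1 and proteases that shed cadherins. Of the 51, 26 had an H3K27ac region (51.0%, interval 36.6 to 65.2), against 28.5% of all protein-coding genes. An HSF1 region was assigned to 10 of the 51 (19.6%), and the interval of 9.82 to 33.1 includes the 12.5% of all protein-coding genes. The subgroups below are small, and a count of 0 for HSF1 in any of them has an interval that includes that share. Among the 7 catenins, CTNNA1 (alpha-catenin of epithelia, 8.42-fold at its promoter), CTNND1 (p120-catenin, 10.66-fold in an intron) and JUP (plakoglobin, 7.30-fold upstream) had H3K27ac and no HSF1. CTNNA2 and CTNND2, the catenins of neurons, had 18 and 20 HSF1 regions and no H3K27ac, as did CTNNA3 with 1 and CTNNB1 (beta-catenin) with 4, the highest of which lay upstream, at -162 kb from its start. Of 10 other adherens junction partners, 7 had H3K27ac and 0 had HSF1, led by LIMA1 (9.54-fold at its promoter), NECTIN2 (8.42-fold), VCL (7.86-fold) and ACTN4 (7.30-fold). Of 12 desmosome genes, 7 had H3K27ac, led by DSP (8.72-fold) and DSC3 (8.42-fold), and DSP and PKP2 also had HSF1.

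Among 13 giant and seven-pass cadherins and their relatives, 5 had H3K27ac and 4 had HSF1. FAT1 held 26 H3K27ac and no HSF1 regions, and FAT3 held 22 HSF1 and no H3K27ac regions, while FAT4 and RET were in both lists. ZEB1 and TWIST1, of 6 repressors of CDH1, had H3K27ac regions at 6.73-fold and 7.30-fold, that of TWIST1 139 kb from its start, and none of the 6 had HSF1. Of 3 proteases that shed cadherins, ADAM10 and ADAM15 had H3K27ac and none had HSF1. In each of these groups the intervals include the shares of all protein-coding genes, 28.5% for H3K27ac and 12.5% for HSF1.

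Without PCDH7 the family's H3K27ac regions looked unlike the full set. In the whole family 57 of 76 were intronic (75.0%, interval 63.7 to 84.2) against 33.2% in the rest of the list, and the median distance to the start was 96.6 kb against 21.4 kb. In the 21 regions outside PCDH7, 23.8% were intronic (interval 8.22 to 47.2), 47.6% intergenic (interval 25.7 to 70.2) and 9.52% of the promoter class (interval 1.17 to 30.4), and the median distance was 24.1 kb. The promoter class took 2.63% of the family's regions with PCDH7 and 16.8% of the rest of the list. Median fold enrichment was 6.17 in those 21 regions, 7.30 at PCDH7 and 6.73 in the rest.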

How the data were processed

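ChIP-seq libraries of HCT116 cells, an IP and an input for H3K27ac and for HSF1, were analysed through 1 list of annotated regions per IP. Per the labels and the study's methods, the authors used FastQC, Bowtie2 2.2.7 and hg19, and called regions with MACS for each IP over its input. The sources used here do not give read filters or totals of mapped reads, so the depth of each library is unknown. The tag counts per region are the whole numbers that the authors deposited, not normalized. The deposited score is 10 times the negative logarithm of the caller's p-value. Fold enrichment is the authors' ratio of IP over background, and the deposited false discovery rate is a percent. All were compared within a list only, since minimum scores differed (50 and 30).

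Rows per transcript were reduced to 1 entry per region and symbol, with class, start and distance as deposited. Distances run from the middle of a region. The background was 19392 protein-coding RefSeq genes on chromosomes 1 to 22 and X, from a GRCh38.p14 table used for names. Promoter sequences came from RefSeq on that build. No hg19 genome was used, so the sequence of the regions was not analysed here. H3K27ac regions within 10 kb were joined. Overlap required 1 bp. No group is replicated, so the comparisons are descriptions with no test, and they compare lists. The members and gene lists were chosen with earlier results of these data known. Named were every member with an H3K27ac region, the 10 members with most HSF1 regions, the 10 regions of highest fold enrichment per list, members in both lists, empty members where 5 or fewer, and up to 4 genes per pathway subgroup. Of the family regions with highest H3K27ac fold enrichment, those of PCDH7 are given by the highest and by their range. Alternatives were other score minima, distances, classes, symbols, chromosomes and overlaps. Counting, joining and overlap steps were tested on simulated data. Calculations used scipy 1.17.1, pandas 2.3.3 and numpy 2.4.6 in Python 3.11.15, and plots matplotlib 3.10.9.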

Additional observations from a re-analysis of the deposited data

How the results depend on the processing

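No paired analysis was possible because each group holds 1 library and no test was made, and for the same reason no library could be left out. Of 94 alternative values, 49 stayed close to the value given and 45 did not, where a count or density was close within 1.5 times and a share or median within the 95% interval of the value given, which is narrow for medians over many regions. With scores of 100 or more, 4 members and 22 regions were left of 9 and 76 for H3K27ac, and 0 and 0 of 20 and 270 for HSF1. With scores of 50 or more, the H3K27ac minimum, HSF1 kept 11 members and 28 regions, 0 members were in both lists, and HSF1 named 5 of the 51 pathway genes in place of 10. The shares of all protein-coding genes at that score were not computed. Within 100 kb of the start, 40 H3K27ac and 47 HSF1 regions were left, and 2 members were in both lists. With intergenic regions left out, 4 members had H3K27ac. With the promoter class alone, 2 members had H3K27ac and 1 had HSF1, and the pathway counts were 6 and 1. Counting regions within 10 kb as meeting gave 2 in place of 0. Current symbols, and leaving out chromosome 5 or chromosome 18, kept every count within 1.5 times. HSF1 regions of a score of 50 or more were 57.1% intronic and 35.7% intergenic. With 1 region per gene, that of highest fold enrichment, the H3K27ac regions lay a median of 40.3 kb and the HSF1 regions 172 kb from the start. In alternatives chosen after seeing the data, intervals widened by 500 kb lowered the H3K27ac density at PCDH7 to 43.5 per Mb and the HSF1 density at CDH13 to 20.7 per Mb, and without CDH13 the median width of HSF1 regions was 1278 bp. The cause of these changes, beyond fewer regions counted, was not tested. Regions hold few tags, and a missing region says only that none was called.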
